A study of Mus musculus with 12 samples.

Results

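Baseline expression was compared between immortalized mouse embryonic fibroblasts, the cells that build connective tissue, of 2 genotypes and without any treatment. One carried both copies of Rictor (Rictor+/+) and the other lacked the gene (Rictor-/-). The comparison used 6 of the 12 arrays of the study, chosen by their genotype and treatment labels alone. Arrays 1, 5 and 9 held untreated Rictor+/+ cells, and arrays 3, 7 and 11 held untreated Rictor-/- cells. The other 6 arrays held the same lines after 24 hours of mouse interferon-alpha (IFN) at 2500 U/ml, and served here as a second look at the line difference on arrays that the untreated comparison does not use. Both lines grew in DMEM with fetal bovine serum and gentamycin, and their biotin-labelled RNA was read on Illumina mouse BeadChips. The labels do not say whether the cells of a genotype come from 1 line or several. They are called a line here, and the loss of Rictor and any other difference between the cells of the 2 genotypes cannot be told apart. Whether the 3 arrays of a line stand for separate cultures is not stated, so p-values measure only the spread between these arrays. A treatment field common to all samples names small interfering RNAs against Rictor, which is at odds with the genotype field, and the genotype field was followed.

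Rictor gives mTOR complex 2 its identity, and that complex phosphorylates Akt, SGK and protein kinase C isoforms and so links growth factor signals to survival, metabolism and the cytoskeleton. Fibroblasts make the collagens, proteoglycans and glycoproteins of connective tissue. In culture they are known to keep a pattern of homeobox transcription factors, the Hox genes above all, that records the body region they came from.

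Intensities were corrected for background, quantile-normalized and put on the log2 scale, and 8273 named genes had a probe that rose above background on 3 or more of the 12 arrays. Values below are log2 normalized intensities, listed in the order of arrays 1, 5 and 9 for Rictor+/+ and arrays 3, 7 and 11 for Rictor-/-. Differences are Rictor-/- minus Rictor+/+, ± SE, from a limma model, with n = 3 arrays a line, and a gene was called at a Benjamini-Hochberg adjusted p under 0.05 over 17259 features. Where a line lay below background on all 3 arrays, the fold is a lower bound against the background limit. Where only 1 or 2 arrays of a line were above background, their number is given for most genes, since the fitted difference then rests in part on signal at background. "Only in" a line means above background on 3 of 3 arrays there and on 0 of 3 in the other. The 3 arrays of that line suffice to pass the background filter, so the direction of such genes follows in part from it. Total signal was 42555922 to 58667247 an array, with 34.1% to 46.9% of probes above background. Arrays 1, 5 and 3 had a high background and arrays 9, 7 and 11 a low one, so background level and line are partly confounded, and no label names a batch. In a bulk RNA sample, fewer cells of a type and less RNA per cell cannot be told apart.

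The 2 lines differed widely. In untreated Rictor-/- cells 881 named genes were higher (10.6% of those tested) and 969 were lower (11.7%), or 22.4% in all by limma. The counts of each gene list below are to be read against these shares. A difference of at least 2-fold was found for 636 of the higher and 745 of the lower genes, and one of at least 8-fold for 79 and 129. The median difference over all named genes was -0.04, and the median size of the difference was 0.49 against a median SE of 0.28. Among the 6554 genes above background on all 6 arrays, 599 were higher and 599 lower (18.3%). At the extremes, 125 genes were present only in Rictor-/- cells (1.51%) and 194 only in Rictor+/+ cells (2.34%). When arrays were scaled to a common median instead of a common distribution, 415 genes were higher and 696 lower, so that higher genes made up 37.4% of the calls in place of 47.6%. Within the arrays of high background, 323 and 415 genes were called, and within those of low background 166 and 284, with 1 array of a line in each set. All 1850 called genes had the same sign in both sets, which is no independent check because both sets entered the call.

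**Figure D1:**
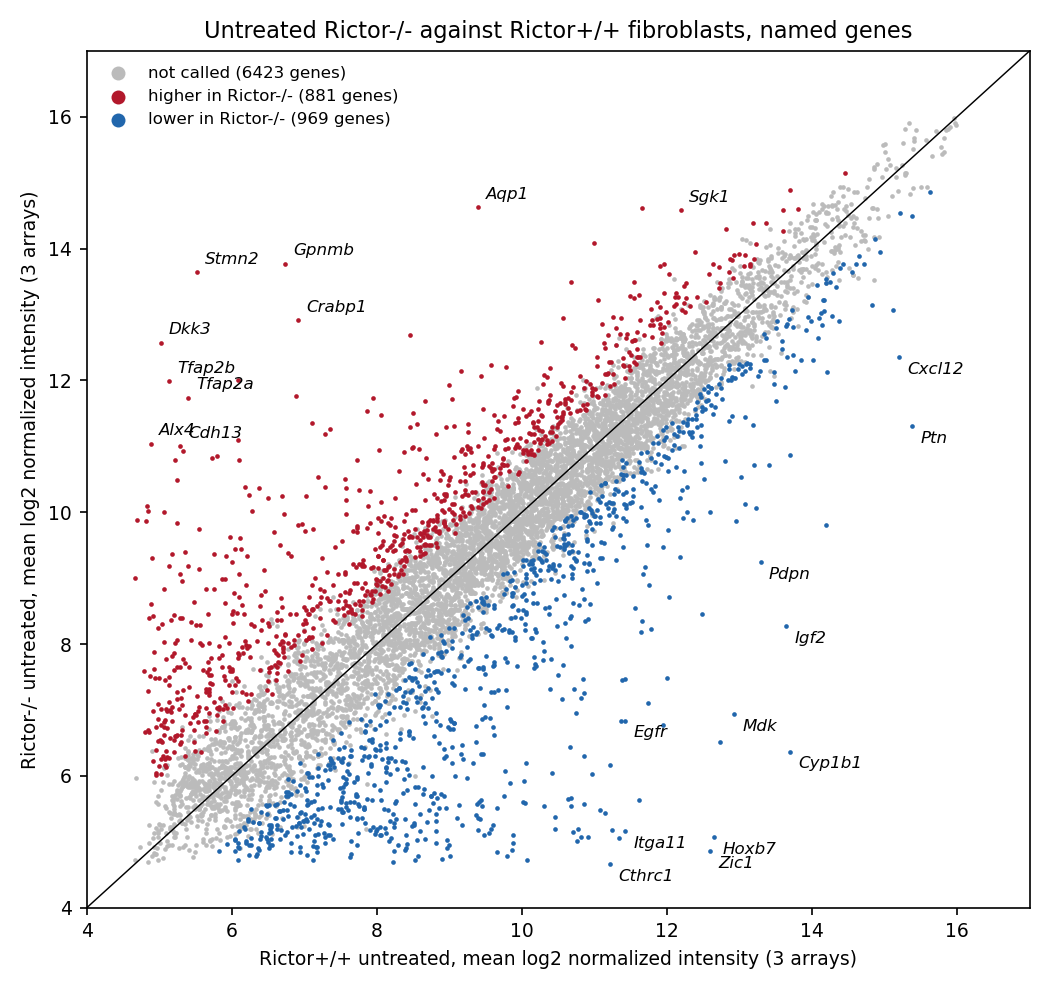
Mean log2 normalized intensity of each of 8273 named genes over 3 arrays of untreated Rictor+/+ (x axis) and Rictor-/- cells (y axis), with the diagonal marking equal levels. Red points are the 881 genes called higher in Rictor-/- cells, blue points the 969 called lower, and labelled genes are among those described in the text.

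The clearest group difference was the Hox code. All 13 measured anterior and trunk Hox genes, which pattern the body from hindbrain to trunk, were lower in Rictor-/- cells, with a median difference of -4.38 against -0.04 over all genes. Of the 27 listed, 17 had a named probe. All 13 were above background on the 3 Rictor+/+ arrays and none was above it on all 3 Rictor-/- arrays, with 9 only in Rictor+/+ cells. The Rictor+/+ arrays alone let them pass the background filter, so their shared direction and the list median follow in part from that filter. Hoxb7, a trunk gene of the Hoxb cluster, read 12.90, 12.65 and 12.40 in Rictor+/+ and 5.10, 4.85 and 5.25 in Rictor-/- cells. It was thus above background on all arrays of one line and below it on all arrays of the other, at least 95.7-fold lower (limma adjusted p = 5.17e-10). Hoxa5 read 10.07, 10.16 and 9.98 against 4.74, 4.80 and 4.62, at least 16-fold lower (limma adjusted p = 1.8e-08). Hoxd8 read 10.48, 10.30 and 10.57 against 5.0, 5.19 and 5.41, at least 20.8-fold lower (limma adjusted p = 3.69e-09). These genes lie in 3 separate clusters on chromosomes 6, 11 and 2, and no array of one line overlapped the other in any of them. The smallest difference was that of Hoxa7 at -1.70 ± 0.48 with a limma adjusted p of 0.032, or at least 2.18-fold lower. Without array 1, 3, 5, 7 or 11 the count was 12 of 13. Between the IFN-treated lines 12 of the 13 were again called lower, all but Hoxa7. Within the high-background and low-background arrays the list medians were -4.33 and -4.55. Posterior Hox genes, which pattern the tail end and the distal limb, could not be compared, since 12 were listed, 2 had a named probe and 0 passed the background filter.

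**Figure D2:**
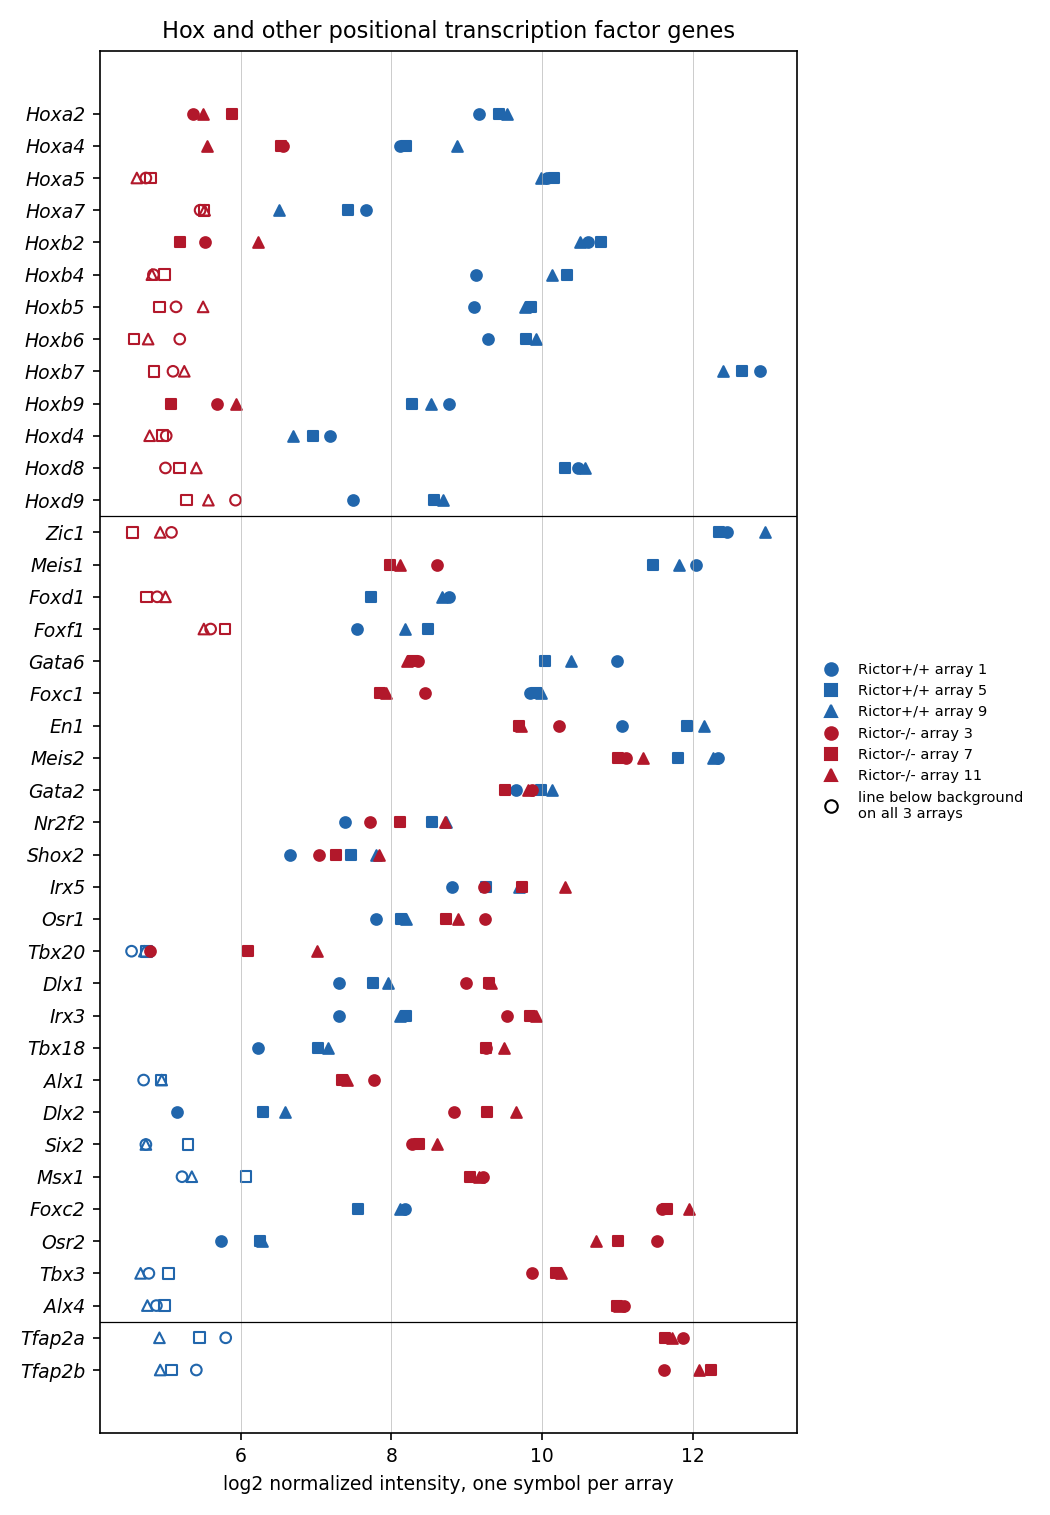
Log2 normalized intensity (x axis) of every measured anterior or trunk Hox gene, of 25 other positional transcription factor genes and of Tfap2a and Tfap2b, with 1 symbol per array, blue for Rictor+/+ and red for Rictor-/-. Open symbols mark a line that lay below background on all 3 arrays. The 13 Hox genes are to the right in Rictor+/+, while 12 of the other factors are to the right in Rictor-/-.

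Other regional transcription factors differed in both directions. Of 25 measured, 12 were higher and 8 lower in Rictor-/- cells, and 20 of these calls were made again between the IFN-treated lines. Zic1, a zinc finger factor of dorsal neural tube and dermis, read 12.45, 12.35 and 12.96 in Rictor+/+ and 5.08, 4.56 and 4.93 in Rictor-/- cells, at least 91.6-fold lower (limma adjusted p = 2.83e-09). Meis1, a homeobox partner of Hox proteins, stayed above background in both lines but was lower by a difference of -3.54 ± 0.27 (limma adjusted p = 1.08e-06). Foxd1, a forkhead factor of stromal cells, was only in Rictor+/+ cells and at least 4.99-fold lower in the other line. Foxc1 and En1, chosen after their values were seen, were lower too, with differences of -1.84 and -1.83, and Shox2, at 0.08, was not called. Alx4, an aristaless-like homeobox factor, read 4.88, 4.99 and 4.76 in Rictor+/+ and 11.09, 10.99 and 11.02 in Rictor-/- cells, at least 29.0-fold higher (limma adjusted p = 2.67e-09). Tbx3, a T-box factor of limb and mammary development, read 4.78, 5.04 and 4.67 against 9.87, 10.19 and 10.25, at least 15.2-fold higher. Osr2, an odd-skipped factor of palate and limb, was higher by 4.99 ± 0.26 with 1 of 3 Rictor+/+ arrays above background, and Foxc2, a forkhead factor of mesenchyme and lymphatic vessels, by 3.78 ± 0.29 (limma adjusted p = 4.12e-08 and 1.48e-06). Alx1, Six2 and Msx1, of facial and skeletal mesenchyme, were also present only in Rictor-/- cells, so that 5 of the 25 were only in that line and 3 only in Rictor+/+.

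Tfap2a and Tfap2b, the AP-2 factors of neural crest and its derivatives, were present only in Rictor-/- cells. Tfap2b read 5.41, 5.08 and 4.93 in Rictor+/+ and 11.62, 12.25 and 12.09 in Rictor-/- cells, at least 56.1-fold higher (limma adjusted p = 1.23e-08). Tfap2a read 5.80, 5.45 and 4.92 against 11.87, 11.63 and 11.72, at least 47.3-fold higher. Stmn2, a stathmin best known from growing neurons, read 6.42, 5.34 and 4.81 against 13.85, 13.49 and 13.59, at least 177-fold higher (limma adjusted p = 8.72e-09). These 3 genes were the higher members of a list of 25 neural, glial and neural crest markers. The list had 9 measured members. The log2 of their summed intensities was 11.49 to 11.64 in Rictor+/+ and 14.37 to 14.51 in Rictor-/- cells. In Rictor-/- cells that sum is set mostly by the bright members, Stmn2 above all. Stmn2, Tfap2a and Tfap2b passed the background filter through Rictor-/- arrays, so their direction and that of the sum follow in part from that filter. Nes, Ncam1 and Map2, a neural filament, an adhesion molecule and a microtubule protein, were lower, with 0 lower calls under median scaling and 1 without array 7. Dcx, of migrating neurons, was above background on 1 of 3 arrays in each line, and Tubb3, neuronal tubulin, on 0 and 2.

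The promoters of 4 of these genes are shown because the genes switch between above and below background: Hoxa5, Hoxd8 and Zic1 present only in Rictor+/+ cells and Tfap2b only in Rictor-/- cells. Each run is the 250 bases before the gene's start from RefSeq on build GRCm38.p6, in the direction of transcription. Capitals mark letters that match GCCNNNGGC, the core recognized by AP-2 factors, or TGATNNAT, the paired core of Hox and Pbx proteins, on either strand.
Hoxa5: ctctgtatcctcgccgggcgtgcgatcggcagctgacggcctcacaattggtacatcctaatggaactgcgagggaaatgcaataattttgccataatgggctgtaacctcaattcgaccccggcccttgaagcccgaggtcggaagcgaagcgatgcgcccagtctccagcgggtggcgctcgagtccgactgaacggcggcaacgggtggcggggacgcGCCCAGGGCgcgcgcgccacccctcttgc
Hoxd8: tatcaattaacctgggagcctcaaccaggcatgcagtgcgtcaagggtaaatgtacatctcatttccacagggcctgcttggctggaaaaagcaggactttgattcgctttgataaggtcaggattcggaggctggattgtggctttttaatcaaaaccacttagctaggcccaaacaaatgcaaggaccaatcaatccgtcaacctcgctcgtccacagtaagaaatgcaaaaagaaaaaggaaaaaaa
Zic1: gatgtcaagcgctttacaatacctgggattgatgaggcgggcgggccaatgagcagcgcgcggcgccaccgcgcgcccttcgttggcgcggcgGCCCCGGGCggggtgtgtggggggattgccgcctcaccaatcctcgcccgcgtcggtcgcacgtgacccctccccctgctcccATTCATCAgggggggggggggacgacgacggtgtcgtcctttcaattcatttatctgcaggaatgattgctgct
Tfap2b: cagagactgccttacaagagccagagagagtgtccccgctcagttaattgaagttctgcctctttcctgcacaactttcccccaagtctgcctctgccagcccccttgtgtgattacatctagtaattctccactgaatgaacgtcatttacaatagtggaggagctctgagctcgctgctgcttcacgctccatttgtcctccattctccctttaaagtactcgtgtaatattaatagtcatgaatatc
The Hoxa5 window is chr6:52204588-52204837 on the minus strand, that of Hoxd8 is chr2:74704365-74704614 on the plus strand, that of Zic1 is chr9:91365769-91366018 on the minus strand, and that of Tfap2b is chr1:19211804-19212053 on the plus strand. Hoxa5 and Zic1 held 28 and 27 CpG dinucleotides, Hoxd8 and Tfap2b 6 and 5. GCCNNNGGC occurred once in Hoxa5 and once in Zic1, and TGATNNAT once in Zic1. Over 250-base windows GCCNNNGGC occurred in 13.6% of all 27025 promoters in the RefSeq table, in 19.4% of the 643 higher genes that matched the table, in 20.8% of the 753 lower ones and in 20.5% of the 5320 not called. TGATNNAT occurred in 7.91%, 3.27%, 5.05% and 3.33%. The matches in Zic1 do not overlap. Each share describes letters in a window, not binding.

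Both lines carried the fibroblast markers, at unequal levels. Of 22 measured markers all were above background on the 3 Rictor+/+ arrays and 20 on the 3 Rictor-/- arrays, and 11 were lower and 1 higher in Rictor-/- cells, with a median difference of -0.77. The lower count was 7 without array 7 or without array 11. Vim, the intermediate filament of mesenchymal cells, read 14.71, 15.29 and 14.95 in Rictor+/+ and 15.83, 15.41 and 15.49 in Rictor-/- cells and was not called. Thy1, a surface glycoprotein, differed by 0.00 ± 0.39, and Prrx1 and Twist1, factors of mesenchyme, by -0.09 ± 0.22 and 0.33 ± 0.28. Lower members were mostly matrix genes and surface proteins. Fap, a fibroblast surface protease, was only in Rictor+/+ cells and at least 5.03-fold lower in the other line, and Pdgfra, a platelet-derived growth factor receptor, was lower by a difference of -1.93 ± 0.31. S100a4, a calcium-binding protein of motile fibroblasts, was the 1 higher member, by 1.79 ± 0.30 (limma adjusted p = 0.00143). Outside the list, Pdpn, podoplanin of stromal and lymphatic cells, read 13.51, 13.21 and 13.14 against 9.27, 9.20 and 9.25, a difference of -4.05 ± 0.24 (limma adjusted p = 1.19e-07).

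Few markers of other cell types were measured, and several of these differed. Of 20 epithelial markers 3 were measured, with Krt7, a keratin, higher (not without array 7) and Lama5, a laminin chain, lower. Krt7 was above background on 2 of 3 Rictor+/+ arrays and Lama5 on 1 of 3 Rictor-/- arrays. Epcam and Grhl2, defining genes of epithelium, had a probe that did not pass the background filter. Of 20 leukocyte markers 6 were measured, 1 higher and 1 lower, with Lyz2 and C1qa not passing the filter. Of 16 endothelial markers 5 were measured and Flt1, a receptor for vascular growth factors, was the 1 called, higher by 2.50 ± 0.24. Of 20 skeletal muscle markers 4 were measured and 3 were higher, namely Mef2c, Tnnc1, a troponin, and Pax3, a factor of muscle precursors and neural crest. Acta1 and Myl1, fibre proteins, had a probe that did not pass the filter. Mef2c, a muscle and neural crest factor, was only in Rictor-/- cells, reading 4.87, 4.93 and 4.85 against 8.44, 8.63 and 8.76, at least 5.40-fold higher. Pax3 was also only in Rictor-/- cells, at least 1.32-fold higher, and was not called between the IFN-treated lines. Both genes passed the background filter through Rictor-/- arrays, so their direction follows in part from that filter. The log2 of the summed intensities of the endothelial markers was 9.15 to 9.60 in Rictor+/+ and 11.12 to 11.39 in Rictor-/- cells. That of the skeletal muscle markers was 8.08 to 8.99 and 10.01 to 10.11. The brightest genes set such sums, so they do not show a rise of every member. Flt1 alone read 10.81, 11.01 and 11.10 in Rictor-/- cells. The part of other cell types in the line difference was not tested.

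Genes of the fat lineage were lower. Of 8 measured adipocyte lineage genes 5 were lower and 0 higher, with a median difference of -2.33, and all 5 were again called lower between the IFN-treated lines. Pparg, the master regulator of fat cell formation, read 9.59, 9.60 and 9.43 in Rictor+/+ and 4.81, 5.51 and 5.08 in Rictor-/- cells, at least 11.1-fold lower (limma adjusted p = 4.4e-08). Lpl, the lipase that frees fatty acids from lipoproteins, differed by -4.56 ± 0.29 with 2 of 3 Rictor-/- arrays above background, and Ebf2, a factor of brown fat precursors, was at least 6.14-fold lower. Adipoq and Lep, hormones of mature fat cells, did not pass the background filter. Of 16 smooth muscle and contractile genes 25% were called, near the 22.4% of all genes. The 12 not called included Acta2 at -0.04 ± 0.18. Actg2, the enteric smooth muscle actin, was lower by a difference of -5.17 ± 0.34 and Mylk, myosin light chain kinase, by one of -4.94 ± 0.25 (limma adjusted p = 3.06e-07 and 3.24e-08). Mylk was above background on 1 of 3 Rictor-/- arrays. Cartilage and bone genes split, with 3 of 7 higher and 2 lower. Of 2 measured pluripotency genes Klf4 was higher and Nanog lower, with Nanog above background on 1 of 3 Rictor-/- arrays. Omd, osteomodulin of bone, was higher by 3.49 ± 0.32 with 2 of 3 Rictor+/+ arrays above background, and Ogn, the related osteoglycin, lower by a difference of -2.49 ± 0.38.

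The lines also differed in sex-linked and imprinted genes. Xist, the RNA that coats an inactive X chromosome in female cells, read 5.16, 5.32 and 5.57 in Rictor+/+ and 9.63, 9.50 and 9.07 in Rictor-/- cells, at least 9.36-fold higher (limma adjusted p = 3.97e-07). Eif2s3y, a Y-linked translation factor gene, read 9.05, 8.79 and 9.21 against 4.80, 4.82 and 4.75, at least 7.69-fold lower (limma adjusted p = 3.04e-08). Of 6 measured sex-linked genes 3 were higher and 2 lower, with 1 higher under median scaling. Of 19 measured imprinted genes, which are expressed from 1 parental copy, 8 were lower and 3 higher. Igf2, the fetal growth factor, read 14.44, 13.07 and 13.41 against 8.51, 8.25 and 8.05, a difference of -5.37 ± 0.33 (limma adjusted p = 1.44e-07). Dlk1, a Notch-like protein of precursor cells, was lower by a difference of -3.16 ± 0.33. Cdkn1c, a cyclin-dependent kinase inhibitor, was only in Rictor-/- cells, at 9.49, 7.68 and 7.54, at least 4.17-fold higher. Nnat, a membrane proteolipid of the nervous system, was higher by 3.16 ± 0.36 with 1 of 3 Rictor+/+ arrays above background. Igf2 and Nnat, both read from the paternal copy, thus differed in opposite directions.

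The Rictor probe lay close to background, above it on 2 of 3 arrays of each line, and did not separate the lines. It read 5.31, 6.58 and 6.89 in Rictor+/+ and 6.09, 6.65 and 6.80 in Rictor-/- cells, a difference of 0.26 ± 0.47 (limma adjusted p = 0.792) that turned negative within the low-background arrays (-0.16) and without array 1 (-0.22). Whether the probe lies within the deletion is unknown, so it checks nothing. Among 25 measured genes of the mTOR complexes and their upstream regulators 2 were higher and 4 lower. Mtor, the kinase of both complexes, read 8.55, 8.41 and 8.50 against 9.83, 9.33 and 9.69, higher by 1.13 ± 0.19 (limma adjusted p = 0.0015), though it was not called under median scaling. Prr5, also called Protor-1, a Rictor-binding subunit of complex 2, read 8.89, 8.84 and 8.88 against 7.38, 6.72 and 6.22, a difference of -2.10 ± 0.36 (limma adjusted p = 0.0015). Rragb, a Rag GTPase that brings mTOR complex 1 to the lysosome, was only in Rictor-/- cells and at least 3.59-fold higher. Deptor, Sesn2 and Ddit4, inhibitors of mTOR signalling, were the other lower members. The lower count was 1 without array 5 or under median scaling and 2 without array 3, 7 or 11. Rptor, the defining subunit of complex 1, differed by -0.63 ± 0.26 (limma adjusted p = 0.131), and Mlst8, shared by both complexes, by -0.30 ± 0.35 (limma adjusted p = 0.659), with values of 0.33 within the low-background arrays and 0.07 without array 1.

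Few genes of the PI3K, Akt and AGC kinase list were called. The list is not limited to kinases downstream of mTOR complex 2, and also holds PI3K subunits, Irs2, Eif4ebp1 and Eif4ebp2. Of its 16 measured genes 1 was called. It was Sgk1, a serum-regulated kinase whose protein is activated by complex 2, at 12.35, 12.11 and 12.11 in Rictor+/+ and 14.74, 14.46 and 14.55 in Rictor-/- cells, higher by 2.39 ± 0.19 (limma adjusted p = 1.88e-06) and again higher by 2.69 between the IFN-treated lines. Without array 1 the count was 2. Of 15 genes of FoxO factors and their targets, which Akt restrains through FoxO, 2 were higher and 2 lower. Txnip, a regulator of glucose uptake and a FoxO target, was lower by a difference of -2.28 ± 0.45 (limma adjusted p = 0.00422), and Insr, the insulin receptor, higher by 0.80 ± 0.20. The FoxO counts rest on single arrays, with 0 higher without array 3 or 5 and 1 lower without array 7, 9 or 11. Under median scaling 0 FoxO genes were higher and 1 was lower. With 26.7% of the FoxO list and 24% of the mTOR list called in either direction, both lie near the 22.4% of all genes, and the kinase list with 6.25% lies below it.

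Many genes of DNA replication were lower. Of 30 measured replication genes 13 were lower and 0 higher, with a median difference of -0.88. Mcm4, a subunit of the replicative helicase, read 14.04, 14.00 and 14.00 in Rictor+/+ and 11.79, 12.52 and 12.61 in Rictor-/- cells, a difference of -1.70 ± 0.27 (limma adjusted p = 0.000709). Cdc45, a helicase cofactor, read 10.82, 10.82 and 10.46 against 8.29, 8.90 and 8.69, a difference of -2.08 ± 0.26 (limma adjusted p = 0.00012). Both genes lie on chromosome 16, where 36.4% of named genes were lower against 11.7% of all. Array 3 was the lowest Rictor-/- array in both. The count depended on it, with 6 lower without array 3, 8 without array 5 and 7 under median scaling, and the median was -1.64 within the high-background arrays and -0.59 within the low-background arrays, where 0 were called. Of the 13, 3 were called lower between the IFN-treated lines. Of 21 mitosis and G2/M genes 2 were higher and 0 lower, with a median difference of -0.04. That median was -0.65 within the high-background arrays and 0.22 within the low-background arrays. Cdc25c, the phosphatase that starts mitosis, was higher by 1.49 ± 0.26 (limma adjusted p = 0.00175), and the mitotic count was 1 under median scaling or without any single one of arrays 1, 5, 7, 9 and 11. It lies on chromosome 18, where 33% of named genes were higher against 10.6% of all. Of 17 ribosome biogenesis and Myc genes 0 were called by limma, with medians of -0.46 within the high-background arrays and 0.12 within the low-background arrays. Myc itself differed by -0.27 ± 0.25.

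Among regulators of the cell cycle the calls went both ways. Of 19 cyclin-dependent kinase inhibitors, G1 cyclins and their partners, 3 were higher and 2 lower. The 26.3% called lies near the 22.4% of all genes. Ccnd1, cyclin D1, read 13.10, 13.54 and 12.89 in Rictor+/+ and 14.42, 14.40 and 14.32 in Rictor-/- cells, higher by 1.20 ± 0.23 (limma adjusted p = 0.00308). Rb1, the retinoblastoma protein that holds cells in G1, was higher by 1.23 ± 0.23. Ccne1, cyclin E1, and Cdkn2a, the Ink4a/Arf locus, were the lower members, and without array 9 neither was called, while without any other single array 1 was. Of 15 p53 pathway genes 3 were higher and 3 lower, or 40% called. Pmaip1, the death-promoting protein Noxa, was higher by 1.74 ± 0.22 (limma adjusted p = 0.000139), and Cdkn1a, the best-known p53 target, differed by -0.48 ± 0.30 and was not called. Pmaip1 lies on chromosome 18, where 33% of named genes were higher against 10.6% of all. Without array 1 or 3 the higher p53 genes numbered 1, and without array 5 or 11 the lower ones did, with 1 in each direction under median scaling.

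**Figure D3:**
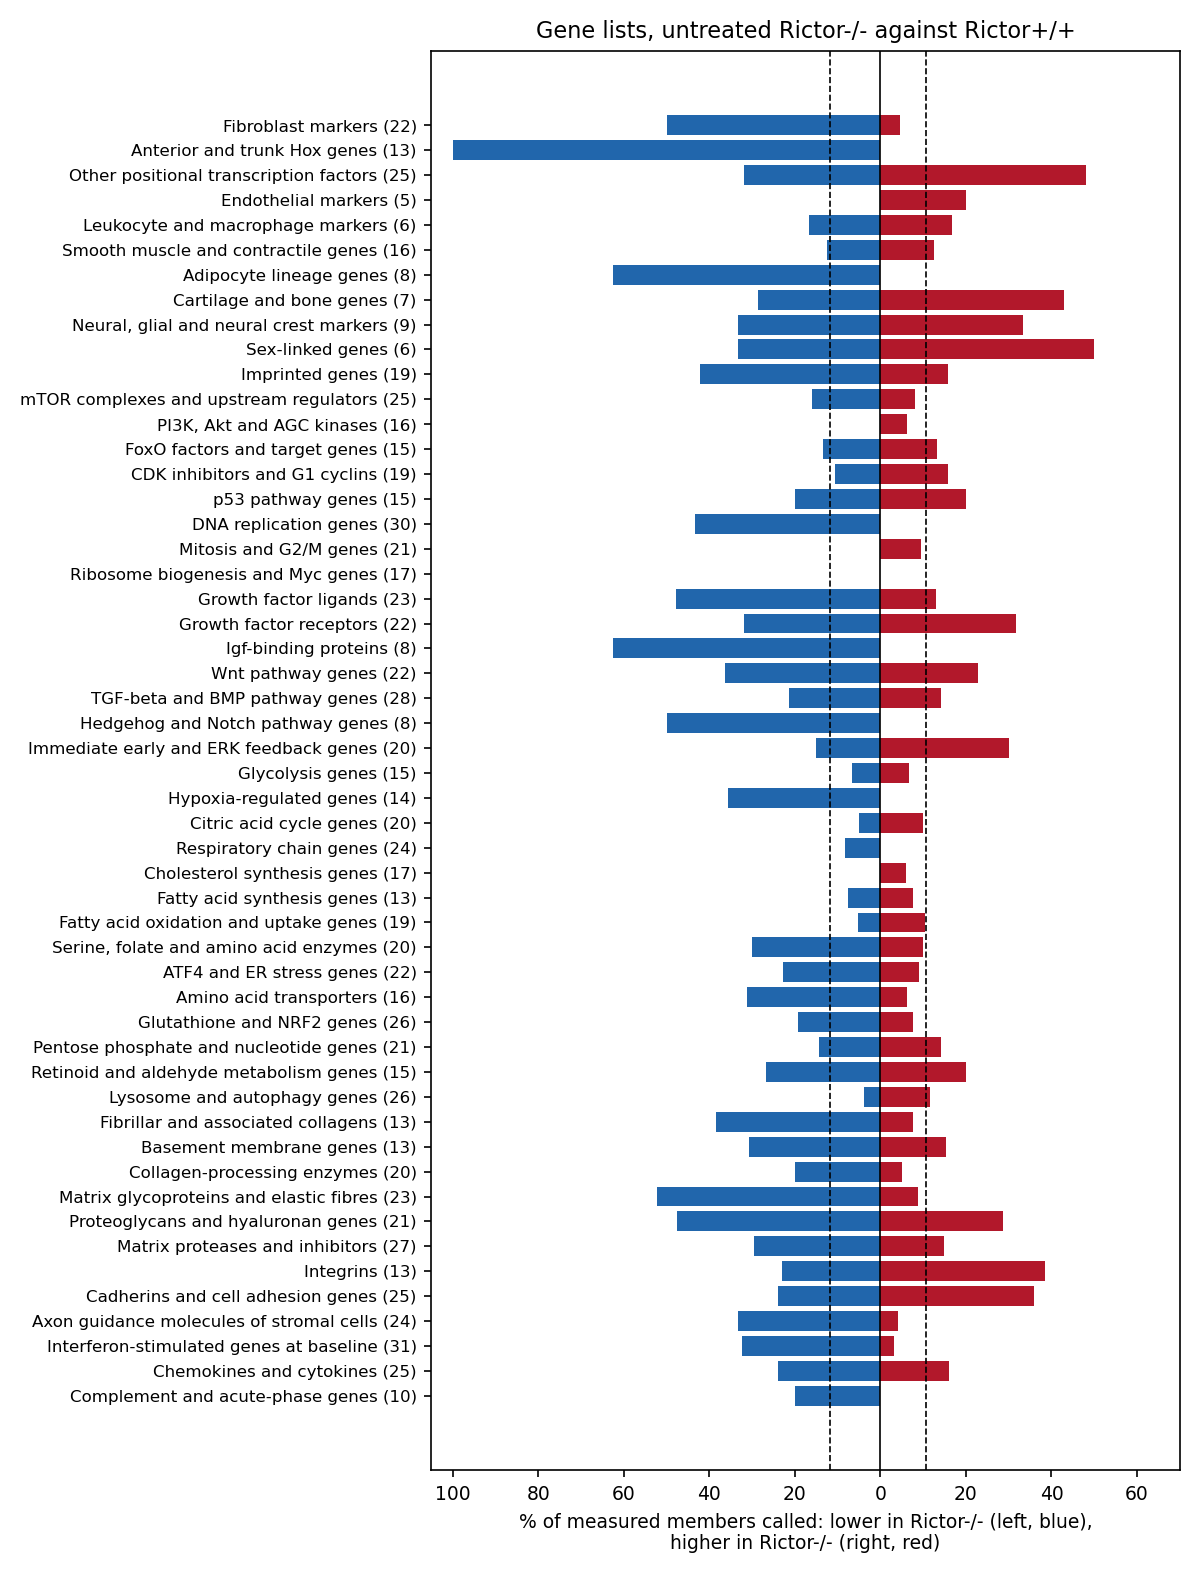
Percentage of the measured members of each gene list called lower (blue, to the left) or higher (red, to the right) in untreated Rictor-/- cells, with the number of measured members in brackets. Dashed lines mark the shares of all named genes, 11.7% lower and 10.6% higher. The Hox list is lower throughout, and the ribosome biogenesis list has no call.

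Of 23 measured ligands 11 were lower and 3 higher, with a median difference of -1.07, and 14 of these calls were made again between the IFN-treated lines. Mdk, midkine, a heparin-binding factor of embryonic tissue, read 12.70, 12.97 and 13.10 in Rictor+/+ and 6.95, 7.27 and 6.6 in Rictor-/- cells, a difference of -5.99 ± 0.27 (limma adjusted p = 1.13e-08). Its relative Ptn, pleiotrophin, read 15.37, 15.34 and 15.43 against 11.49, 11.29 and 11.15, a difference of -4.07 ± 0.23. Gas6, the ligand of the Tam receptor kinases, was only in Rictor+/+ cells and at least 27.6-fold lower in Rictor-/- cells (limma adjusted p = 7.98e-09), and Hgf, hepatocyte growth factor, at least 5.66-fold. Higher ligands were Fgf7, keratinocyte growth factor, by 2.83 ± 0.34, Hbegf, a ligand of the epidermal growth factor receptor, by 1.80 ± 0.30, and Pdgfa by 1.13 ± 0.19. Pdgfa was not called under median scaling, and Fgf7 was above background on 2 of 3 Rictor+/+ arrays.

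Of 22 growth factor receptors 7 were lower and 7 higher. Egfr, the epidermal growth factor receptor, read 12.10, 10.94 and 11.21 in Rictor+/+ and 7.22, 6.66 and 6.63 in Rictor-/- cells, a difference of -4.58 ± 0.37 (limma adjusted p = 1.92e-06). Epha3, an ephrin receptor, differed by -3.68 ± 0.33 with 2 of 3 Rictor-/- arrays above background, and Nrp1, a co-receptor for semaphorins and vascular growth factors, by -2.0 ± 0.28. Flt1, given above at 2.50 ± 0.24, and Axl, a receptor for Gas6, at 1.20 ± 0.25, were among the higher receptors. The higher count was 2 without array 3 or 5 or under median scaling and 4 without array 7, 9 or 11. Among 8 members of the Igf-binding list, which holds both the secreted binding proteins and mRNA-binding proteins named for Igf2, 5 were lower and 0 higher, with a median difference of -1.68. Igfbp5 read 11, 9.48 and 10.41 against 5.77, 5.23 and 5.62, at least 18.7-fold lower, and Igfbp3 was at least 10.1-fold lower (limma adjusted p = 2.1e-06 and 8.57e-08). Igf2 and Igf1 were lower, at -5.37 ± 0.33 and -2.86 ± 0.22, as were the called members of the Igf-binding list. Igf1r, the receptor of both ligands, was higher by 0.70 in the same fit.

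**Figure D4:**
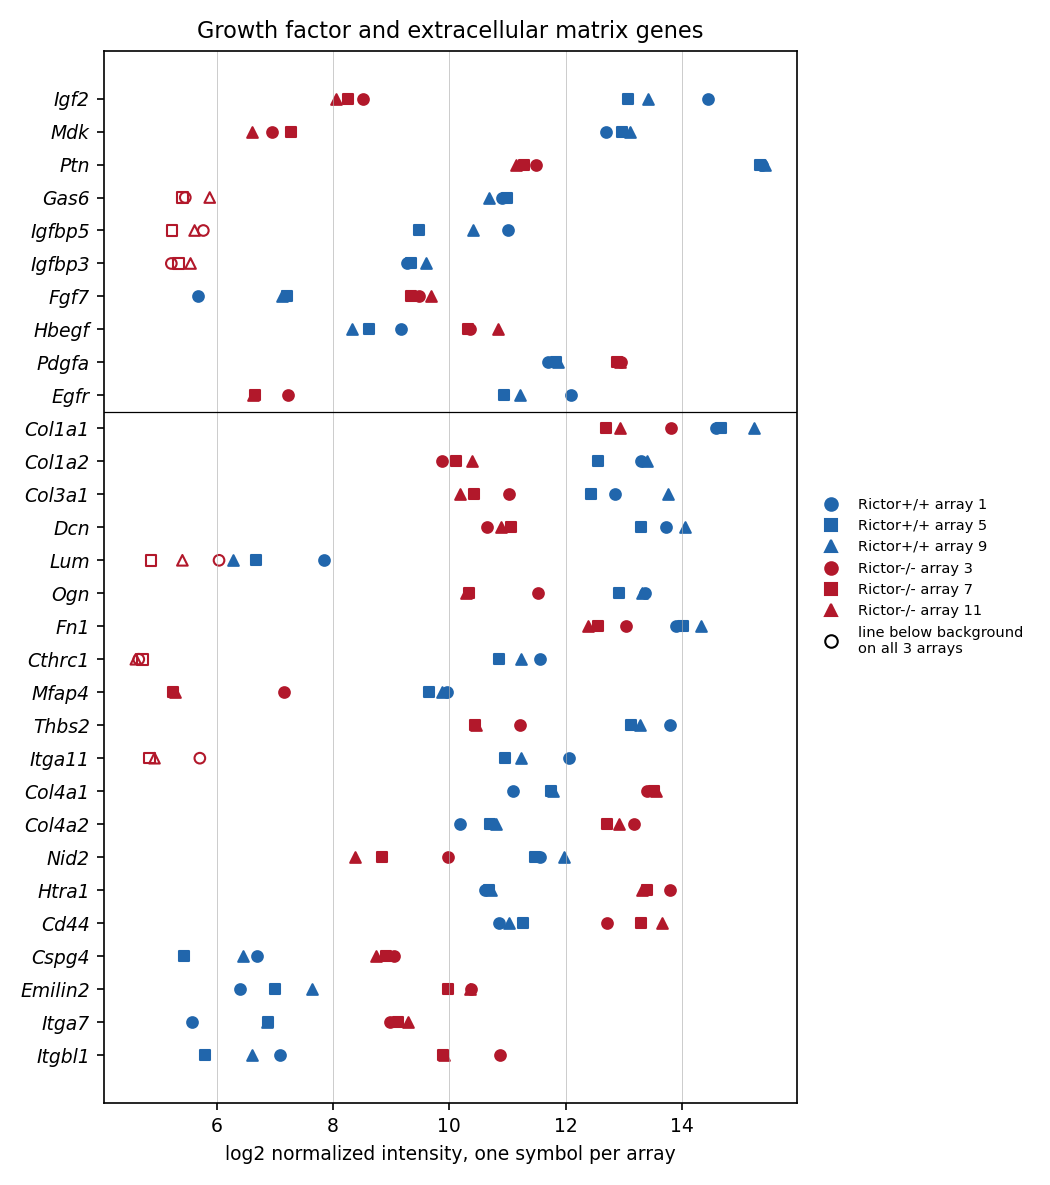
Log2 normalized intensity (x axis) of 10 growth factor pathway genes and 20 matrix and matrix receptor genes, with 1 symbol per array, blue for Rictor+/+ and red for Rictor-/-. Open symbols mark a line below background on all 3 arrays. Fibrillar collagens, Dcn, Fn1 and Cthrc1 are to the right in Rictor+/+, and Col4a1, Col4a2, Htra1 and Cd44 are to the right in Rictor-/-.

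Pathways of development held some of the largest single differences. Of 22 Wnt pathway genes 8 were lower and 5 higher, or 59.1% called against 22.4% of all genes. Dkk3, a secreted protein of the Dickkopf family, read 5.28, 5.06 and 4.72 in Rictor+/+ and 12.91, 12.49 and 12.30 in Rictor-/- cells, at least 83.9-fold higher (limma adjusted p = 6.37e-10). Rspo3, a secreted enhancer of Wnt signals, read 10.97, 11.02 and 11.24 against 5.12, 5.64 and 5.70, at least 32.2-fold lower (limma adjusted p = 8.92e-08). Sfrp1 and Sfrp2, secreted Wnt inhibitors of one family, differed in opposite directions, with Sfrp1 higher by 2.02 ± 0.22 and Sfrp2 at least 6.78-fold lower. Of 8 Hedgehog and Notch genes 4 were lower and 0 higher (50% called). Hes1, a direct Notch target, read 10.14, 10.20 and 10.07 against 8.25, 7.94 and 8.08, a difference of -2.05 ± 0.22 (limma adjusted p = 2.33e-05). Notch3 was at least 4.14-fold lower. Of 28 TGF-beta and BMP genes 6 were lower and 4 higher (35.7% called), and Bmpr1b, a BMP receptor, was lower by a difference of -3.05 ± 0.28. Under median scaling 1 gene of that list was higher. Bmpr1b in Rictor-/- cells and Sfrp1 in Rictor+/+ cells were above background on 1 of 3 arrays.

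Of 20 immediate early and ERK feedback genes 6 were higher and 3 lower, or 45% called against 22.4% of all genes. Jun, a subunit of the AP-1 factor, read 8.63, 7.98 and 7.02 in Rictor+/+ and 11.46, 11.45 and 11.67 in Rictor-/- cells, higher by 3.66 ± 0.34 (limma adjusted p = 7.06e-06). Etv4, an Ets factor induced by ERK signalling, was higher by 2.49 ± 0.41. Egr2, an early growth response factor, was only in Rictor+/+ cells, where array 1 stood at 10.84 against 7.83 and 7.57 on the other two, and Fos was not called. The higher count was 3 without array 3 or without array 5.

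Energy metabolism differed little as a group. Of 15 glycolysis genes 1 was higher and 1 lower, of 20 citric acid cycle genes 2 and 1, of 24 respiratory chain genes 0 and 2, of 17 cholesterol synthesis genes 1 and 0, of 13 fatty acid synthesis genes 1 and 1, and of 19 fatty acid oxidation and uptake genes 2 and 1. Their shares called, 5.88% to 15.8%, were below the 22.4% of all genes. Single members stood out. Slc2a3, a glucose transporter, read 9.13, 8.26 and 8.63 in Rictor+/+ and 4.92, 5.13 and 5.07 in Rictor-/- cells, at least 6.08-fold lower (limma adjusted p = 3.98e-07). Pdk4, the kinase that shuts pyruvate dehydrogenase and a known FoxO target, read 7.23, 7.04 and 7.56 against 10.78, 10.22 and 10.18, higher by 3.12 ± 0.28 (limma adjusted p = 5.27e-06). Ndufv2, a complex I subunit, was lower by a difference of -1.05 ± 0.17 but was not called under median scaling. The single higher glycolysis call was lost without array 3, 5 or 11, the higher fatty acid synthesis call without array 1, 3, 7 or 11, and the lower citric acid cycle call without array 1, 3 or 11. The glycolytic enzymes Gapdh and Ldha differed by 0.06 ± 0.26 and 0.19 ± 0.34 and were not called.

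Of 14 hypoxia-regulated genes 5 were lower and 0 higher, and 3 were lower without array 5 or 11 or under median scaling. P4ha2, a collagen prolyl hydroxylase, differed by -2.31 ± 0.17 and Vegfa, a vascular growth factor, by -1.38 ± 0.19 (limma adjusted p = 9.22e-07 and 0.00023).

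In the lists of amino acid metabolism more of the called genes were lower than higher. Of 20 serine, folate and amino acid enzymes 6 were lower and 2 higher, of 22 ATF4 and ER stress genes 5 and 2, and of 16 amino acid transporters 5 and 1. The shares called in either direction were 40%, 31.8% and 37.5%, against 22.4% of all genes. Aldh1l2, a mitochondrial folate enzyme, read 13.02, 12.68 and 13.15 in Rictor+/+ and 10.32, 9.70 and 9.59 in Rictor-/- cells, a difference of -3.08 ± 0.25 (limma adjusted p = 2.18e-06). Trib3, a pseudokinase induced by ATF4, differed by -1.81 ± 0.34, and Vldlr, a lipoprotein receptor, by -1.88 ± 0.23. The lower ATF4 count was 2 without array 7 or under median scaling and 3 without array 5 or 11, and the lower enzyme count was 3 under median scaling. Phgdh and Psat1, the first enzymes of serine synthesis, were not called. Slc1a3, a glutamate and aspartate transporter, read 11.73, 10.81 and 10.90 against 5.11, 5.54 and 5.66, at least 33.8-fold lower (limma adjusted p = 6.13e-08). Slc7a3, a carrier of cationic amino acids, read 12.49, 11.83 and 11.68 against 7.88, 7.44 and 7.12, a difference of -4.52 ± 0.30 (limma adjusted p = 3.87e-07). Slc6a6, the taurine transporter and the 1 higher member, had a difference of 0.93 with its brightest probe (limma adjusted p = 0.0415) and of -0.28 with the mean of its probes, and its call was lost without array 1, 3, 7, 9 or 11.

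Metabolism of retinoids and foreign compounds separated the lines strongly in a few genes. Of 15 retinoid and aldehyde genes 4 were lower and 3 higher. Cyp1b1, a cytochrome P450 that oxidizes retinol, steroids and aromatic compounds, read 13.61, 13.44 and 14.03 in Rictor+/+ and 6.86, 6.01 and 6.25 in Rictor-/- cells, a difference of -7.32 ± 0.29 (limma adjusted p = 3.53e-09). Crabp1, a carrier of retinoic acid in the cytoplasm, read 7.57, 6.44 and 6.73 against 13.26, 12.88 and 12.59, higher by 6.0 ± 0.32 (limma adjusted p = 4.79e-08). Adh7, an alcohol dehydrogenase active on retinol, was higher by 4.24 ± 0.35, and Rarb, a retinoic acid receptor that is itself a retinoic acid target, was only in Rictor+/+ cells and at least 3.93-fold lower. Of 26 glutathione and NRF2 genes 5 were lower and 2 higher, or 26.9% called against 22.4% of all genes. Mgst1, a membrane glutathione transferase, was at least 15.6-fold lower, while its relative Mgst3 was higher by 2.32 ± 0.22 (limma adjusted p = 9.97e-07 and 1.04e-05). The lower count was 3 without array 7 or 11, and the higher count 1 without array 1, 3, 5 or 7. Of 26 lysosome and autophagy genes 3 were higher and 1 lower, or 15.4% called, below the 22.4% of all genes. The counts were 5 higher without array 9 and 2 lower without array 3. In this list 2 cathepsins, lysosomal proteases, went in opposite directions. Ctsh read 6.65, 5.44 and 5.10 against 10.79, 10.82 and 10.84, higher by 5.09 ± 0.32 with 1 of 3 Rictor+/+ arrays above background, and Ctsc was at least 7.45-fold lower. Of 21 pentose phosphate and nucleotide genes 3 were higher and 3 lower (28.6% called against 22.4% of all genes), with 0 lower without array 5 and 1 without array 3, 7 or 9.

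Matrix genes differed in both directions. Of 13 fibrillar and associated collagens 5 were lower, 1 was higher and 7 were not called, with a median difference of -0.60 against -0.04 over all genes. Col1a1, a chain of type I collagen, read 14.58, 14.67 and 15.24 in Rictor+/+ and 13.81, 12.69 and 12.93 in Rictor-/- cells, a difference of -1.69 ± 0.44 (limma adjusted p = 0.0213). Its partner Col1a2 read 13.30, 12.55 and 13.40 against 9.87, 10.11 and 10.39, a difference of -2.96 ± 0.34 (limma adjusted p = 4.79e-05), and Col3a1, of type III collagen, differed by -2.48 ± 0.41. The lines did not overlap in these 3 genes, though array 3 lay nearest to the Rictor+/+ arrays in Col1a1 and Col3a1. The lower count was 2 without array 7 or 11 and 3 without array 9. Of 20 collagen-processing enzymes 4 were lower, 1 was higher and 15 were not called, with 1 lower without array 7 or 11 and 2 without array 5 or under median scaling. The 25% of these enzymes called lies near the 22.4% of all genes.

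Of 21 proteoglycan and hyaluronan genes 10 were lower and 6 higher, and 5 were not called. Dcn, decorin, which binds collagen fibrils, read 13.72, 13.29 and 14.06 in Rictor+/+ and 10.65, 11.06 and 10.89 in Rictor-/- cells, a difference of -2.82 ± 0.31 (limma adjusted p = 3.54e-05). Has2, the main hyaluronan synthase of fibroblasts, was only in Rictor+/+ cells and at least 5.65-fold lower, while Cd44, the hyaluronan receptor, was higher by 2.17 ± 0.25 (limma adjusted p = 5.88e-05). Cspg4, the NG2 proteoglycan of pericytes and precursor cells, was higher by 2.70 ± 0.33. Of 23 glycoprotein and elastic fibre genes 12 were lower and 2 higher, with a median difference of -0.99. Cthrc1, a secreted collagen triple helix protein, read 11.56, 10.85 and 11.24 against 4.66, 4.72 and 4.61, at least 35.4-fold lower (limma adjusted p = 2.83e-09). Mfap4, of elastic microfibrils, differed by -3.94 ± 0.48, and Thbs2, a matricellular thrombospondin, by -2.69 ± 0.31. Emilin2, an elastin interface protein, was higher by 3.22 ± 0.32. The lower count of the glycoprotein list was 7 without array 7 or 11 and 8 without array 5. Mfap4 was above background on 1 of 3 Rictor-/- arrays, and Cspg4 and Emilin2 on 2 of 3 Rictor+/+ arrays.

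Basement membrane genes were split by chain. Col4a1 and Col4a2, the common chains of type IV collagen that are transcribed from one shared promoter region, were both higher, by 1.95 ± 0.27 and 2.37 ± 0.31. Col4a2 read 10.19, 10.70 and 10.80 in Rictor+/+ and 13.18, 12.71 and 12.91 in Rictor-/- cells (limma adjusted p = 0.000162). Col4a6, a chain of restricted distribution, was only in Rictor+/+ cells and at least 4.37-fold lower, and Nid2, which links laminin to collagen, differed by -2.60 ± 0.37. In all, 2 of 13 basement membrane genes were higher and 4 lower. Of 27 matrix proteases and inhibitors 8 were lower and 4 higher, with 5 lower without array 7 or 11. Htra1, a secreted serine protease, read 10.61, 10.69 and 10.71 against 13.79, 13.40 and 13.31, higher by 2.83 ± 0.28 (limma adjusted p = 1.19e-05). Mme, neprilysin, a membrane peptidase, differed by -4.04 ± 0.30 with 1 of 3 Rictor-/- arrays above background.

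Receptors for matrix and for neighbouring cells differed in both directions. Of 13 integrin genes 5 were higher and 3 lower. Itga11, which pairs with the beta 1 chain as a fibrillar collagen receptor, read 12.06, 10.96 and 11.23 in Rictor+/+ and 5.71, 4.84 and 4.93 in Rictor-/- cells, at least 40.7-fold lower (limma adjusted p = 4.4e-08). Itga7, of a laminin receptor, was higher by 2.70 ± 0.40, Itga8 by 2.45 ± 0.22 and Itgbl1, an integrin-like secreted protein, by 3.72 ± 0.36 (limma adjusted p = 0.000438, 5.7e-06 and 1.1e-05). Without array 11 the higher integrins numbered 3. In Rictor+/+ cells Itga8 was above background on 1 of 3 arrays, and Itga7 and Itgbl1 on 2. Of 25 cadherin and adhesion genes 9 were higher and 6 lower. Cdh13, a cadherin anchored by a lipid, read 5.73, 5.03 and 5.06 against 10.89, 11.17 and 10.94, at least 28.3-fold higher (limma adjusted p = 2.95e-09). Cldn1, a tight junction claudin, was higher by 3.99 ± 0.28, and Cdh3, P-cadherin, at least 3.59-fold lower. Of 24 axon guidance genes 8 were lower and 1 higher, with 5 lower without array 1 or 7. Sema3e, a secreted semaphorin, differed by -3.91 ± 0.25, while Sema7a, a membrane-anchored one, was higher by 3.42 ± 0.28. Sema3e was above background on 1 of 3 Rictor-/- arrays, and Cldn1 and Sema7a on 2 of 3 Rictor+/+ arrays.

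Some interferon-stimulated genes differed before any interferon was added. Of 31 measured, 10 were lower, 1 was higher and 20 were not called in Rictor-/- cells. The share called was 35.5% against 22.4% of all genes. The median difference was -0.41, with -0.05 within the high-background arrays and -0.49 within the low-background arrays. Isg15, a ubiquitin-like modifier, read 10.84, 10.38 and 10.42 in Rictor+/+ and 7.64, 7.13 and 6.71 in Rictor-/- cells, a difference of -3.39 ± 0.25 (limma adjusted p = 1.01e-06). Rsad2, viperin, was only in Rictor+/+ cells and at least 5.57-fold lower. Trim25, a ubiquitin ligase of RNA sensing, was the 1 higher member, at 4.59, 4.59 and 4.91 against 10.00, 9.93 and 9.76, at least 13.2-fold higher (limma adjusted p = 2.83e-09). In 5 of the 31, among them Irf7, Mx1 and Oas2, both lines were below background. Of 25 chemokine and cytokine genes 6 were lower and 4 higher. Cxcl12, the stromal homing chemokine, read 15.07, 15.18 and 15.36 against 12.17, 12.47 and 12.43, a difference of -2.85 ± 0.20, and Ccl5 was at least 11.5-fold lower (limma adjusted p = 4.65e-07 and 2.05e-07). Il34, a ligand of the macrophage growth factor receptor, and Il15, a growth factor of lymphocytes, were higher by 3.13 ± 0.45 and 3.08 ± 0.25, with 2 and 1 of 3 Rictor+/+ arrays above background. Of 10 complement and acute-phase genes 2 were lower and 0 higher, or 20% called, near the 22.4% of all genes.

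Outside the lists, the largest differences among genes above background on all 6 arrays were spread over many functions. Gpnmb, a glycoprotein of melanosomes and lysosomes, read 7.72, 6.59 and 5.86 in Rictor+/+ and 14.04, 13.48 and 13.78 in Rictor-/- cells, higher by 7.04 ± 0.41 (limma adjusted p = 1.13e-07). Aqp1, a water channel, read 9.82, 9.87 and 8.47 against 14.76, 14.59 and 14.53, higher by 5.24 ± 0.43. Srpx2, a sushi-repeat protein, and Fxyd5, which regulates the sodium pump and adhesion, were higher by 4.88 ± 0.28 and 4.22 ± 0.25. Dnajc15, a mitochondrial chaperone, Fggy, a carbohydrate kinase, Hebp1, a heme-binding protein, and Sirpa, the receptor for CD47, were higher by 3.91 ± 0.27, 3.89 ± 0.26, 3.56 ± 0.24 and 3.42 ± 0.19. On the lower side stood Fcgrt, the neonatal Fc receptor, at -4.63 ± 0.46, Smarca1, an X-linked chromatin remodeller, at -4.53 ± 0.41, and Lrrc17, a secreted leucine-rich repeat protein, at -4.22 ± 0.25. Among genes of one line only, Ptgis, prostacyclin synthase, read 11.29, 11.76 and 10.98 against 4.90, 5.06 and 5.24, at least 38.7-fold lower. Sprr2k, a small proline-rich protein known from keratinocytes, was at least 36.1-fold lower, and S100a7a, of the same epidermal gene complex, at least 25.6-fold higher. Npepl1, an aminopeptidase-like gene, was at least 27.0-fold higher.

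The difference between the lines was uneven over the chromosomes. On chromosome 16 the median difference of 291 genes was -0.69, with 36.4% lower and 2.75% higher, against 11.7% and 10.6% of all named genes. On chromosome 18 the median of 227 genes was 0.52, with 33% higher and 7.05% lower. Among genes named above as lower, Mcm4, Cdc45, Hes1, Epha3 and Mylk lie on chromosome 16. Among those named as higher, Pmaip1, Cdc25c and Hbegf lie on chromosome 18. The part of either shift in these genes was not tested. Chromosomes 11 and 15 had medians of -0.40 and -0.36. Along chromosome 16 the medians of the proximal, middle and distal parts of its genes, cut into 3 equal numbers, were -0.68, -0.63 and -0.75, and along chromosome 18 they were 0.76, 0.48 and 0.49, so both shifts ran over the whole length. Within the high-background and low-background arrays the medians were -0.76 and -0.69 for chromosome 16 and 0.54 and 0.54 for chromosome 18. The IFN-treated arrays gave -0.71 and 0.52. Rictor lies on chromosome 15, and among the 5 measured genes on each side of it, chosen after the values were seen, 3 were lower and 0 higher, with a median difference of -0.18. Gene copy number was not measured. Assignments used the RefSeq table on GRCm38.p6 and covered 8261 of the 8273 genes.

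**Figure D5:**
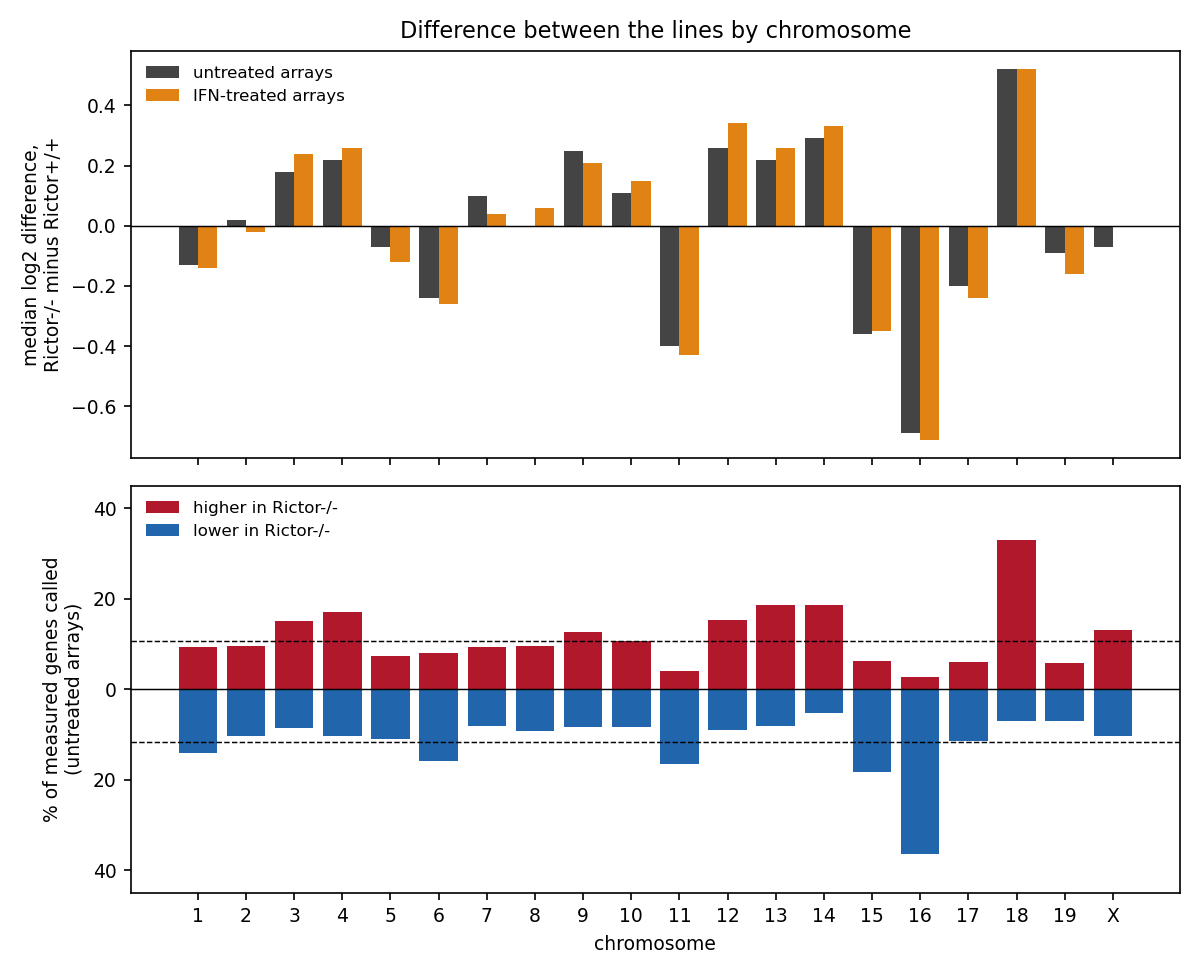
Upper panel, median log2 difference (Rictor-/- minus Rictor+/+) of the named genes of each autosome and of chromosome X on the untreated arrays (grey) and on the IFN-treated arrays (orange). Lower panel, percentage of those genes called higher (red, upwards) and lower (blue, downwards) on the untreated arrays, with dashed lines at the shares of all named genes. Chromosome Y, with 3 measured genes, is not drawn. Of the chromosomes drawn, 16 has the lowest median and the largest share lower, and 18 the highest median and the largest share higher.

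The IFN-treated arrays of the same lines gave much the same picture. They share no array with the untreated comparison, although one model estimated the spread of both. Between the IFN-treated lines 26.7% of named genes were called. Of the 1850 genes called without IFN, 641 were again higher and 745 again lower, or 74.9%. The sign was the same for 857 of the 881 higher and 965 of the 969 lower genes. Called in opposite directions were 2 genes, named here after their values were seen. Ly6c1, a surface protein of the Ly6 family, had a difference of 1.10 without and -2.20 with IFN, and P2ry14, a receptor for UDP-glucose, 1.42 and -1.43. A test of the change in the line difference itself called 58 genes (0.701%), of which 14 had also been called without IFN. No measured member of the Hox, growth factor ligand or collagen lists was among the 58. Without and with IFN the difference was -7.58 and -7.96 for Hoxb7, 6.16 and 6.30 for Alx4 and -5.37 and -5.28 for Igf2. It was -5.99 and -5.80 for Mdk, -2.96 and -2.51 for Col1a2 and 2.39 and 2.69 for Sgk1.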

How the data were processed

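Total RNA of 12 samples was measured on Illumina mouse BeadChips. The deposited non-normalized table holds one intensity for each of 45281 probes on each array, exported with BeadStudio per the submitters' processing notes, with no detection p-values or control probes. The authors also deposited log2 values for 17003 of the probes. How the authors normalized and chose them is not given in the sources used here, and these values served as an alternative. Genes were named only through the platform annotation of that second table, in which 14461 probes had 1 gene, 5 had several and 2537 had none, so named genes may be weighted towards those the authors kept.

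Each array's background was taken as the mode of its log2 signals, with its SD from signals below the mode. Intensities were corrected by normexp with an offset of 16, quantile-normalized and put on the log2 scale. A probe was above background at an upper-tail p under 0.01, and 20856 probes above it on at least 3 of 12 arrays were kept. The brightest probe stood for each gene, giving 17259 features, 8273 of them named. Group means were fitted with limma 3.58.1 in R 4.3.3 on all 12 arrays, so the IFN arrays share in the estimate of spread. Tests were two-sided and adjusted by Benjamini-Hochberg over all features. The script was tested on simulated data. The number of arrays limits the precision.

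Genes named were the 12 largest differences each way above background on all 6 arrays, the 8 largest bounds each way, up to 3 called members each way of each list (the 2 brightest where none was called), and Rictor, Mtor, Mlst8 and Rptor. Other genes were chosen after their values were seen: Hoxa7, En1, Foxc1, Shox2, Alx1, Six2, Msx1, Dcx, Tubb3, Vim, Thy1, Prrx1, Twist1, Pdgfra, Acta2, Myc, Cdkn1a, Hgf, Igf1, Igf1r, Fos, Gapdh, Ldha, Phgdh, Psat1, Col1a1, Isg15, Irf7, Mx1, Oas2, Ly6c1 and P2ry14. The comparison and the 55 gene lists were chosen with earlier results of these data known. Chromosomes and promoters came from RefSeq tables on GRCm38.p6. The alternatives, 20 in all with a block of consecutive array numbers added after seeing the data, changed the offset, background correction, normalization, filter, arrays fitted, weights, background set and summary of probes, used the deposited log2 values, or left out 1 array.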

Additional observations from a re-analysis of the deposited data

Results flagged for a closer look

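In 3 of the genes named by rule and called between the untreated lines, the line difference itself differed with IFN by the interaction term of the limma model, as it did in 14 called genes in all. Ifitm3, an antiviral membrane protein, had a difference of -4.40 without and -0.76 with IFN, a change of 3.63. Xdh, xanthine dehydrogenase of purine breakdown, had -1.20 and -5.50, a change of -4.3. Trim25 had 5.19 and 7.66, a change of 2.46. Since Trim25 was below background on all untreated Rictor+/+ arrays, its 5.19 and its change rest in part on signal at background. Array 12, of IFN-treated Rictor-/- cells, had the lowest total signal of the study at 21292305, with 31.5% of probes above background, and its part in these changes was not tested.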

How the results depend on the processing

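Of the 20 alternatives, 9 of those planned gave 798 to 1040 higher and 878 to 1336 lower genes, and 1145 to 1596 shared with the IFN-treated lines, each within 1.5 times the reported 881, 969 and 1386. Median scaling gave 415 higher and 895 shared genes. Array weights gave 1886 higher, 2053 lower and 2652 shared, weighting arrays 5 and 7 at 3.36 and 4.34 and arrays 1 and 3 at 0.35 and 0.46. Within the high-background arrays the counts were 323, 415 and 464, and within the low-background arrays 166, 284 and 364, with fewer arrays in each fit. Leaving out each array in turn gave 631 to 727 higher, 710 to 859 lower and 1076 to 1282 shared genes. The direction of an uncalled gene turned for Srm (-0.22 within the high-background arrays, -0.01 without array 1), Rictor (-0.16 within the low-background arrays, -0.22 to 0.57 leaving out 1 array) and Mlst8 (0.33 within the low-background arrays, -0.61 to 0.07 leaving out 1 array). That of Slc6a6, called at 0.93, was -0.28 with the mean of its probes. Of 233 named genes, 38 lost their call under median scaling, 80 and 96 within the high-background and the low-background arrays, and 19 to 26 without 1 array. The cause was not tested. The groups share no replicate number, but the numbers fall into runs of 4 (1 to 4, 5 to 8, 9 to 12) that hold each group once. With that replicate block, chosen after seeing the data, 933 genes were higher, 1020 lower and 1441 shared. It ended the call of 3 named genes, Sesn2, Gclm and Gpx3, and no label says that a run was a batch. Signals near background, such as that of Rictor, limit what can be seen.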
